A study of Mus musculus with 12 samples.

Results

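The Hedgehog receptors and GLI effectors comprised 9 genes: the receptor Ptch1, the co-receptors Boc and Gas1, the decoy receptor Hhip, the signal transducer Smo, the GLI inhibitor Sufu, and the transcription factors Gli1, Gli2 and Gli3. They were chosen by name, as the core of the pathway, and are 9 of the 18193 genes measured. Each gene's level is the log2 mean over probe sets assigned to no other gene, leaving out those named with an s or x suffix. All 9 had such a probe set, from 1 for Gli1 and Gli2 to 4 for Hhip.

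RNA was hybridised to Affymetrix mouse expression arrays for 12 mice. The 8 medulloblastomas (MB) came from XRCC4/p53-deficient mice (Nestin-cre p53-/- with conditional Xrcc4 alleles, c/c in MB_706 and MB_1206 and c/- in the other MBs), in which Cre acts in nestin-expressing neural progenitors. Cerebellar granule progenitor cells (CGNP) came from 2 mice and non-neoplastic cerebellum (WC) from 2 mice. The study describes both as matched to the tumor mice in age and genotype, and it gives no age for these arrays in the sources used here. The MBs are labelled tumor tissue, but the study's methods also list 6 of the 8 MBs as cultured cells, so the material behind an array may differ between tumors.

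Hedgehog ligands bind Patched 1 (PTCH1), with BOC and GAS1 as co-receptors, and relieve the block that PTCH1 keeps on Smoothened (SMO). SMO then acts at the primary cilium, the GLI proteins are freed from SUFU, and GLI2 and GLI1 switch on target genes, whereas GLI3 acts mainly as a repressor. Gli1, Ptch1 and Hhip are themselves targets of the pathway. Purkinje cells secrete the ligand SHH in the developing cerebellum and drive the expansion of granule progenitors, and the SHH subgroup of medulloblastoma arises from these progenitors.

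In the libraries as a whole, between 42.1% and 43.4% of probe sets stood above a log2 level of 5, and the lowest value of the table, the floor, was 2.20. MB_706 stood apart in RNA quality: the 3′ and 5′ control probe sets differed by 2.94 on the log2 scale there, against 0.56 to 0.82 in the other MBs, 0.15 and 0.23 in the CGNPs and 0.48 and 0.52 in the WCs. Markers of granule progenitors (Atoh1, Pax6, Zic1, Barhl1, Mki67) had a mean log2 level of 10.42 to 11.06 in the MBs, 8.93 and 8.74 in the CGNPs, and 5.73 and 5.65 in the WCs. They were not uniform: Atoh1, Barhl1 and Mki67 averaged higher in MB than in CGNP. Pax6 (6.34 in MB against 7.43 in CGNP) and Zic1 (13.51 against 13.80) averaged lower. In WC, Zic1 averaged 13.87, the highest of the groups, and Pax6 6.12. The low mean of the WCs rested mainly on Atoh1, Barhl1 and Mki67. The 5 mesenchymal markers had a mean of 2.76 to 5.64 in the MBs, 6.37 and 6.54 in the CGNPs, and 4.67 and 4.35 in the WCs. For the 6 markers of astrocytes and Bergmann glia the mean was 4.87 to 7.57 in the MBs. It was 7.66 and 7.87 in the CGNPs, and 8.94 and 8.83 in the WCs. These markers were not uniform either: Gfap, Aqp4 and Aldh1l1 averaged highest in the CGNPs, and Gdf10 and S100b lowest there. Microglial markers stood at 7.14 to 8.55 in the MBs, 4.15 and 5.29 in the CGNPs, and 5.80 and 5.98 in the WCs. How far such cells account for any difference below was not tested. In bulk samples fewer cells of a type and less RNA per cell cannot be told apart.

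Gli1, Gli2, Smo, Hhip and Boc were higher in MBs than in either normal tissue, with the widest differences for Gli1 and Gli2. Of the 9 genes, 6 were higher in MBs than in CGNPs (limma, adjusted p under 0.05), where 18.7% of all genes tested were higher, and none was lower, where 18.6% were. Against WC, 6 of the 9 were higher, where 22.2% of all genes were, and none was lower, where 21.8% were. All 9 differences were above 0 in both comparisons, so no member was lower at an unadjusted p under 0.05 or with the methods' t-test either. Both comparisons share the 8 MBs, and the share of all genes that passed in both was not computed. Beside those 5 genes, Gas1 passed against CGNP alone and Sufu against WC alone, and Gli3 and Ptch1 passed in neither. The median difference of the 9 genes was 1.42 against CGNP and 1.32 against WC, where the median of all genes was 0 in each. Between CGNP and WC, 1 of the 9 (Sufu) was higher, beside 14.9% of all genes, and 2 (Gli1 and Gas1) were lower, beside 13.6%, with a median difference of -0.23.

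**Figure D1:**
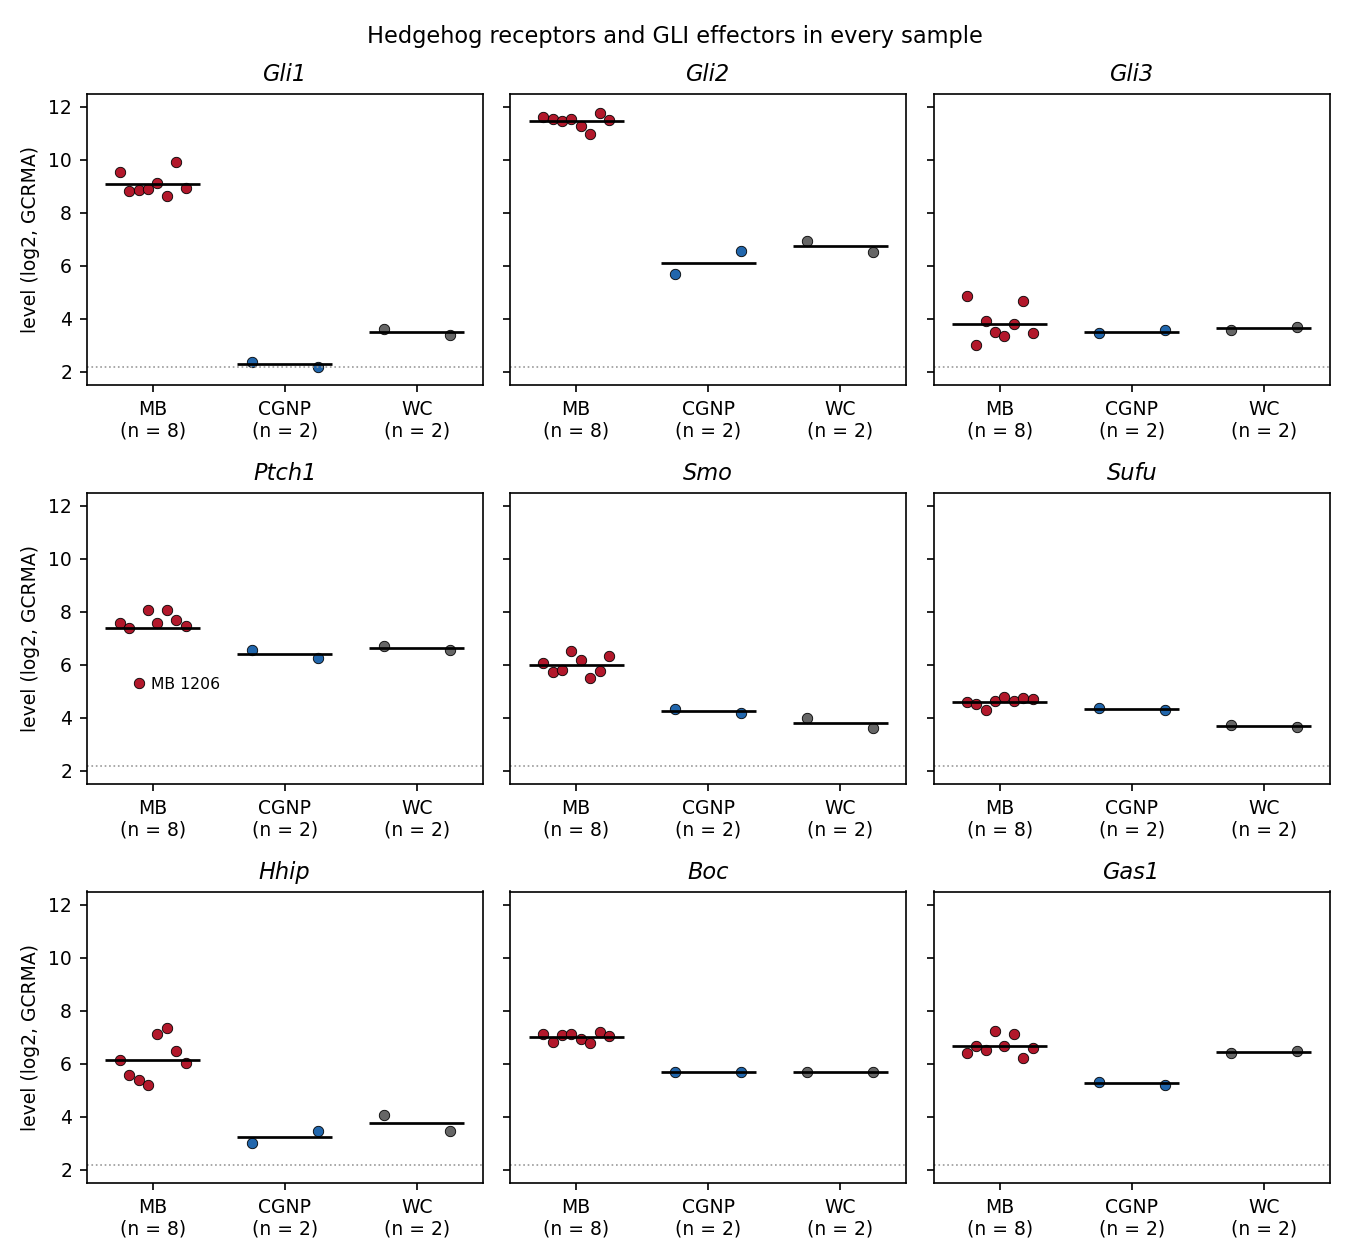
Level of each gene (log2, GCRMA) in every sample of MB (n = 8), CGNP (n = 2) and WC (n = 2). Points are samples, bars are group means and the dotted line is the floor of the table at 2.20. For Gli1, Gli2, Smo, Hhip and Boc every MB lies above every normal sample, and for Ptch1 a single tumor, MB_1206, lies below them all. The share of all genes with every MB above every normal sample was not computed.

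Ptch1, the receptor that represses SMO, is both a brake on the pathway and one of its targets. Its log2 level in the MBs was 5.33 at the lowest, 7.59 at the median and 8.08 at the highest, against 6.56 and 6.26 in the CGNPs and 6.71 and 6.56 in the WCs. The lowest value belonged to MB_1206. The other 7 MBs lay between 7.38 and 8.08, above all 4 normal samples, and MB_1206 lay below them all. Over all 8 tumors the difference was 0.99 against CGNP (95% interval -0.35 to 2.33, limma adjusted p = 0.251) and 0.76 against WC (-0.58 to 2.11, adjusted p = 0.389). Without MB_1206 it was 1.29 against CGNP (adjusted p = 0.000921) and 1.06 against WC (adjusted p = 0.00211), so 1 tumor decided the call in both comparisons.

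The probe sets of Ptch1 differed in what they showed. Probe set 1439663_at stood at 4.04 in MB_1206 and 7.08 to 8.51 in the other MBs, against 5.70 and 4.93 in the CGNPs and 5.26 and 4.82 in the WCs. The brightest, 1428853_at, stood at 9.74 in MB_1206 and 12.75 to 13.60 in the other MBs, against 11.78 and 11.65 in the CGNPs and 12.67 and 12.66 in the WCs. MB_1206 was thus the lowest of all 12 samples on both. The other 7 tumors were well clear of WC on the first probe set and less than 1 log2 unit above it on the second. The remaining probe set, 1450824_at, lay at the floor in all 12 samples and pulls the gene's differences towards 0.

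Boc, a cell surface co-receptor that binds SHH, had log2 levels of 6.77 to 7.19 in the MBs (median 7.07), 5.69 and 5.70 in the CGNPs, and 5.69 and 5.70 in the WCs. By this mean level it was the most even of the 9 genes within the normal tissues, and MBs lay above them with no overlap. CGNP minus WC was -0.21 on 1426869_at and 0.24 on 1427516_a_at, which offset each other in the mean. The difference was 1.31 against CGNP (standard error 0.10, limma adjusted p = 6.4e-06) and 1.32 against WC (adjusted p = 3.53e-06). Its probe set 1427517_at was at the floor in all samples, and on the brightest probe set alone the differences were 2.03 and 1.82.

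Gas1, a membrane-anchored co-receptor, set the CGNPs apart. Its log2 levels were 6.23 to 7.24 in the MBs (median 6.62), 5.33 and 5.20 in the CGNPs, and 6.40 and 6.50 in the WCs. The WC values lay within the range of the MBs, and the CGNP values lay below every other sample. Gas1 was higher in MB than in CGNP by 1.42 (standard error 0.23, limma adjusted p = 0.000883), and it differed from WC by 0.23 (95% interval -0.29 to 0.76, adjusted p = 0.55). It was lower in CGNP than in WC, with a difference of -1.19 (adjusted p = 0.0133), a call that was lost without CGNP_2705 (adjusted p = 0.0705), WC_2646 (0.0502) or WC_2647 (0.0663). On the brightest probe set of Gas1 the difference was 2.54 for MB against CGNP and -2.29 for CGNP against WC.

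Hhip, which binds Hedgehog ligands and keeps them from PTCH1, rose in MBs and varied among them more than most of the other genes. Its log2 levels were 5.19 to 7.37 in the MBs (median 6.08), 3.0 and 3.47 in the CGNPs, and 4.08 and 3.48 in the WCs. MB_630 (7.37) and MB_1224 (7.14) were the highest and MB_1207 (5.19) the lowest, and all 8 lay above the normal samples. The difference was 2.93 against CGNP (standard error 0.56, limma adjusted p = 0.00212) and 2.38 against WC (adjusted p = 0.00554), and the call against WC was lost without WC_2647 (2.09, adjusted p = 0.0675). The 4 probe sets of Hhip agreed in direction, with differences of 1.59 to 4.64 against CGNP and 1.35 to 2.96 against WC.

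Smo, the membrane protein that carries the signal inward, was higher in every MB than in every normal sample. Its log2 levels were 5.49 to 6.52 in the MBs (median 5.93), 4.34 and 4.19 in the CGNPs, and 3.98 and 3.63 in the WCs. The difference was 1.72 against CGNP (standard error 0.25, limma adjusted p = 0.000335) and 2.19 against WC (adjusted p = 4.68e-05). The gene's level is the mean of a bright and a dim probe set. On the brightest one, which carries the suffix s and is left out of that mean, the differences were 2.45 and 3.27.

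Sufu, which holds GLI proteins in the cytoplasm, followed another order, with CGNP close to MB and both above WC. Its log2 levels were 4.31 to 4.77 in the MBs (median 4.62), 4.36 and 4.31 in the CGNPs, and 3.72 and 3.66 in the WCs. MB_1206, the lowest tumor, lay level with the lower CGNP, the other 7 MBs lay above both CGNPs, and no MB or CGNP overlapped with WC. Sufu was higher than in WC by 0.92 in MB (standard error 0.10, limma adjusted p = 4.17e-05) and by 0.64 in CGNP (adjusted p = 0.00409). MB differed from CGNP by 0.28 (adjusted p = 0.0567), and by 0.32 (adjusted p = 0.00306) without MB_1206. Since 2 of its 3 probe sets lay at the floor, these values are compressed: on 1450024_at alone MB differed from CGNP by 0.82 and from WC by 2.76, and CGNP from WC by 1.94.

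**Figure D2:**
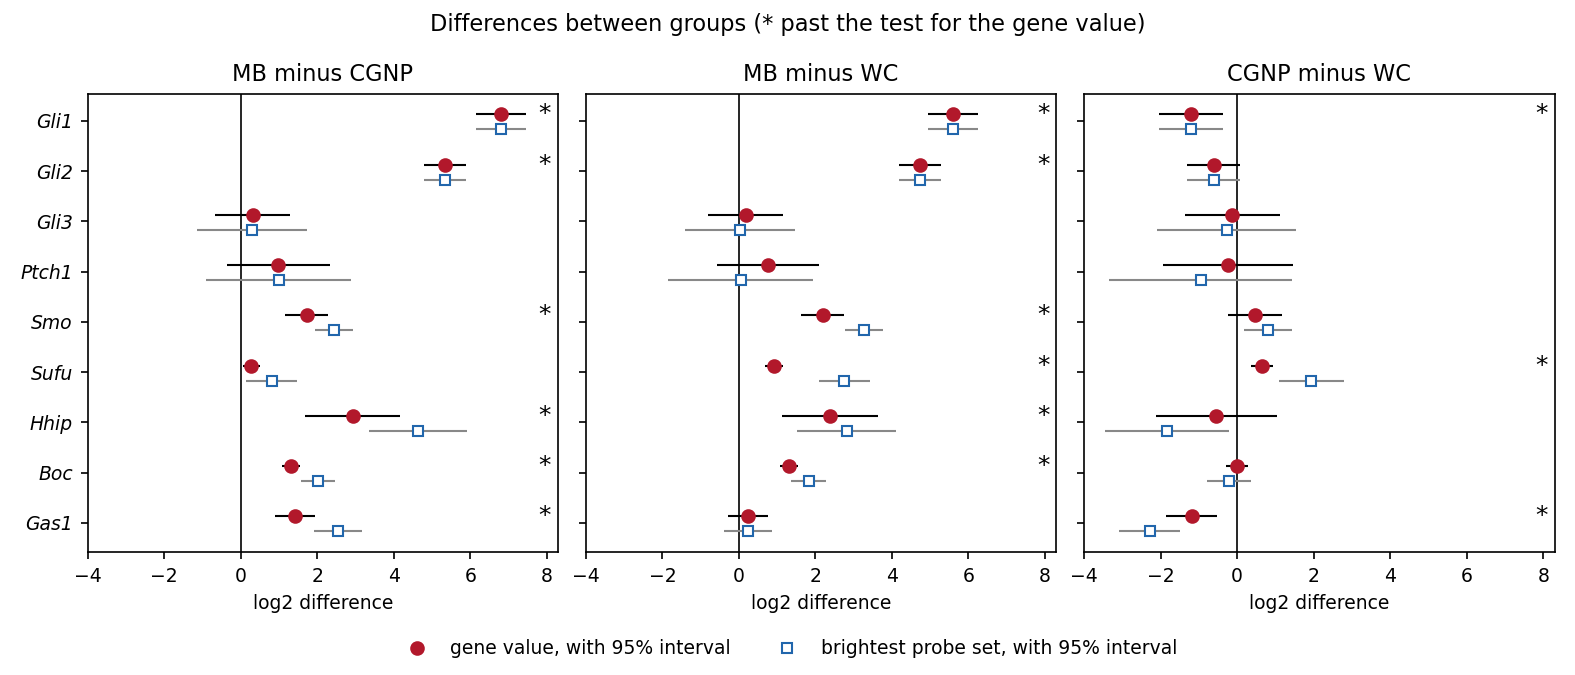
Differences in log2 level between groups for the 9 genes, for the gene value (filled circles) and for its brightest probe set (open squares), each with the 95% interval of the limma fit. Stars mark gene values past an adjusted p of 0.05. The 2 measures share their direction in every pair called. The brightest probe set gives the wider difference for Smo, Sufu, Hhip, Boc and Gas1 in both comparisons with MB, for Gas1 against WC only slightly (0.25 against 0.23).

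Gli1, a transcriptional activator whose own transcription is widely used as a readout of the pathway, showed the widest difference of the 9. Its log2 levels in the MBs were 8.65 at the lowest, 8.92 at the median and 9.91 at the highest, against 2.39 and 2.20 in the CGNPs and 3.61 and 3.40 in the WCs. The CGNPs lay within 0.5 of the floor, so differences from them are lower bounds in size. Gli1 averaged 9.10 ± 0.43 (SD, n = 8) in MB, at least 111-fold above CGNP (log2 difference 6.80, limma adjusted p = 1.19e-07) and 48.3-fold above WC (5.59, adjusted p = 2.17e-07). Gli1 was lower in CGNP than in WC by at least 1.21 (adjusted p = 0.0359), a call lost without MB_1224 (adjusted p = 0.0509), without MB_794 (0.0502), or without any 1 of the 4 normal samples (0.0877 to 0.157).

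Gli2, the main activator downstream of SMO, was raised evenly over the tumors. Its log2 levels in the MBs were 10.96 at the lowest, 11.52 at the median and 11.77 at the highest, against 5.68 and 6.56 in the CGNPs and 6.92 and 6.54 in the WCs. The MBs and the normal samples were more than 4 log2 units apart. The mean was 11.46 ± 0.25 (SD, n = 8) in MB, 40.6-fold above CGNP (log2 difference 5.34, limma adjusted p = 1.63e-07) and 26.6-fold above WC (4.73, adjusted p = 1.77e-07). CGNP and WC overlapped, with a difference of -0.61 (95% interval -1.30 to 0.07, adjusted p = 0.177), which became -1.05 (adjusted p = 0.0335) without CGNP_2705. A probe set with the suffix s, 1446086_s_at, was not part of the gene's level and gave 5.74 against CGNP and 5.67 against WC.

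Gli3, which in its processed form represses Hedgehog targets, did not follow the other GLI genes. Its log2 levels were 3.02 to 4.87 in the MBs (median 3.65), 3.45 and 3.57 in the CGNPs, and 3.59 and 3.70 in the WCs. The normal samples lay inside the range of the MBs, in which MB_1187 (4.87) and MB_706 (4.66) were the highest and MB_1197 (3.02) the lowest. The difference was 0.31 against CGNP (95% interval -0.67 to 1.29, limma adjusted p = 0.742) and 0.18 against WC (-0.80 to 1.16, adjusted p = 0.9). These intervals include a change of up to 1.29, on a scale that 1 probe set at the floor in all samples compresses, so they do not show that Gli3 is alike in the groups.

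GLI proteins bind the motif TGGGTGGTC, written on the other strand as GACCACCCA. It was searched for in short RefSeq promoter windows of GRCm38.p6, each around 1 annotated transcription start. Windows were matched for 7 of the 9 genes (all but Gli1 and Boc), and that of Ptch1 lay inside the gene. None of the 7 windows held these letters on either strand, and 83 of all 32851 windows (0.253%) did. With so small a share, finding none in 7 windows says little about these genes. A gene without the letters in this window may hold sites elsewhere, and a bound site need not match them in full.

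The 8 tumors differed from each other in which Hedgehog genes stood out. MB_630 was the lowest of the 8 for 4 genes (Gli1, Gli2, Smo and Boc) and the highest for 2 (Ptch1 and Hhip). Over the 8274 genes with a median level above 5 in MBs it was the lowest for 19.3% and the highest for 12.2%. Among the MBs it also had the highest mean of the mesenchymal (5.64, against 2.76 to 3.45 in the others), Purkinje cell (6.78, against 3.37 to 4.78) and mature granule neuron markers (8.62, against 5.01 to 7.12). The same held for the endothelial (4.64, against 2.88 to 3.97), interneuron (5.84, against 3.42 to 5.12) and oligodendrocyte markers (5.17, against 3.21 to 4.66). Of these, Pvalb, Mbp and Mobp were highest in MB_1206. MB_630 was not highest for the granule progenitor, astrocyte and microglial lists. In the granule neuron list Gabra6, Cbln3 and Cadps2 were highest in MB_630. Grin2c and Rbfox3 were highest in MB_1224 (7.24 and 9.89, against 5.56 and 9.44 in MB_630). MB_706, the tumor with the wide gap between 3′ and 5′ controls, was the highest for 3 genes (Gli1, Gli2 and Boc), where it was the highest for 14.7% of all 8274 genes. The part of cell content or RNA quality in these ranks was not tested, but Gli1 without MB_706 still differed from CGNP by 6.68 and from WC by 5.48.

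**Figure D3:**
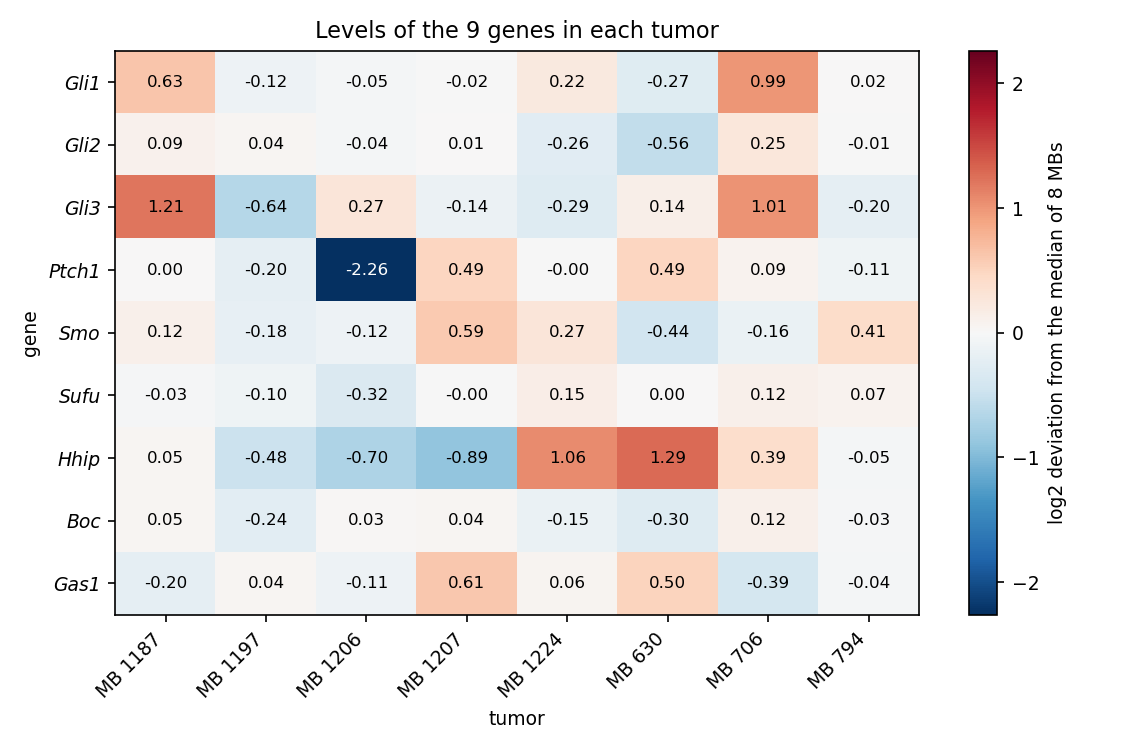
Deviation of each gene (rows) in each MB (columns) from the median of the 8 MBs, on the log2 scale, with the value printed in each cell. Ptch1 in MB_1206 (-2.26) has the widest deviation, and Gli3 and Gli1 are both raised in MB_1187 and MB_706.

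Across the 8 MBs no other member followed Gli1 closely enough to pass. Pearson and Spearman correlations with Gli1 were computed for the 8 other genes and tested by exact permutation, two-sided, with Benjamini-Hochberg adjustment over the 8. None passed, and at an unadjusted p under 0.05 there were 2 by Pearson (Gli3 and Gas1) and 1 by Spearman (Boc). Gli3 had r = 0.77 (exact permutation p = 0.0307, adjusted 0.159) and rho = 0.43 (p = 0.299, adjusted 0.436). The relation rested on MB_706 and MB_1187, the 2 tumors farthest from the median of Gli1: without them r was -0.28. Gas1 had r = -0.72 (p = 0.0454, adjusted 0.159) and rho = -0.62 (p = 0.115, adjusted 0.353), and r was -0.39 without these tumors. Boc had r = 0.68 (p = 0.0613, adjusted 0.159) and rho = 0.79 (p = 0.0279, adjusted 0.223), and r was 0.42 without them. Ptch1, although a target of the pathway, had r = 0.13 (p = 0.75, adjusted 0.899) and rho = 0.07 (p = 0.882, adjusted 0.882). With the brightest probe set of each gene none passed either, but the genes at an unadjusted p under 0.05 changed. They were Boc alone by Pearson (r = 0.82, exact permutation p = 0.0131, adjusted 0.105) and Smo alone by Spearman (rho = 0.79, p = 0.0279, adjusted 0.223).

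MB_1206, with its low Ptch1, had log2 levels of 8.87 for Gli1 and 11.48 for Gli2, rank 6 of the 8 MBs for each, with deviations of -0.05 and -0.04 from their medians. Its Hhip level of 5.38 ranked 7. The genes next to Ptch1 were therefore looked at, a choice made after its values were seen, with no test. Chromosome 13 carries Gli3, Gas1 and Ptch1, and gene order was taken from the RefSeq annotation of GRCm38.p6. Among genes with a median level above 5 in MBs, MB_1206 was the lowest of the 8 tumors for 8 genes in a row: Dapk1, Ctla2b, Ctla2a, Gm5141, Ptch1, Zfp367, Cdc14b and Prxl2c. It deviated from the median of the 8 MBs by -2.47 for Dapk1, a death-associated kinase, by -1.20 for Zfp367 and by -1.68 for Cdc14b, a phosphatase. The margin to the next tumor was narrow for Ctla2b (-1.26, against -1.08 in MB_1224), Ctla2a (-1.13, against -1.02 in MB_1207) and Prxl2c (-0.49, against -0.37 in MB_1187). Ctla2a and Ctla2b are near-identical copies whose signals may not be separate. Outside the row the deviation was -0.11 for Gas1 on one side and 0.13 for Ctsl on the other, so the low stretch began and ended between neighbours. Over all 8274 genes MB_1206 was the lowest tumor for 10.1%.

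For Gli3 and Sufu the low end was also shared with neighbours. Around Gli3, on the same chromosome, MB_1197 had a median deviation of -0.68 over the 20 genes on each side and was the lowest tumor for 33 of the 40, whereas the median deviation lay between 0.00 and 0.05 in each of the other 7 tumors. Over all 8274 genes MB_1197 was the lowest for 10.1%. Gli3 itself deviated by -0.64 in MB_1197, a value compressed by a probe set at the floor. On its brightest probe set MB_1197 stood at 3.38, against a median of 4.43 over the MBs. Around Sufu on chromosome 19, MB_1206 had a median deviation of -0.40 and was the lowest for 27 of the 40 genes, and over all 265 genes of that chromosome above a level of 5 its median deviation was also -0.40, against -0.11 to 0.14 in the other tumors. Sufu deviated by -0.32 there, a value compressed by 2 probe sets at the floor. On 1450024_at alone MB_1206 stood at 8.48, against a median of 9.42 over the MBs. Beside Ptch1, the other members varied in this: the lowest tumor was the lowest for no adjacent gene around Gli2, Smo, Hhip and Gas1, and the row held 2 genes for Boc and 5 for Gli1, both in MB_630. Of the 40 neighbours, MB_630 was the lowest for 16 around Gli1, beside 19.3% of all 8274 genes. MB_706 was the lowest for 14 around Gas1, beside 20.1%. For Gli2, Smo, Hhip and Boc this number lay between 2 and 8.

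At the high end, MB_1207 and MB_630 had the highest levels of both Ptch1 (8.08 in each) and Gas1 (7.24 and 7.12). Over the 270 genes of chromosome 13 above a level of 5, these tumors also had the highest median deviations, 0.44 for MB_1207 and 0.30 for MB_630, where the other 6 lay between -0.23 and 0.02. Around Ptch1 the medians over 40 genes were 0.55 and 0.51. Gene copy number was not measured on these arrays, and what shifts these stretches was not tested. The study scored complex genome rearrangements by whole-genome sequencing, in MB_1206 on chromosomes 6 and 13. In MB_1207 the scored event lay on a chromosome that carries none of the 9 genes, and none was scored in MB_1197 and MB_630. Whether the events in MB_1206 overlap the stretches described here was not tested.

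**Figure D4:**
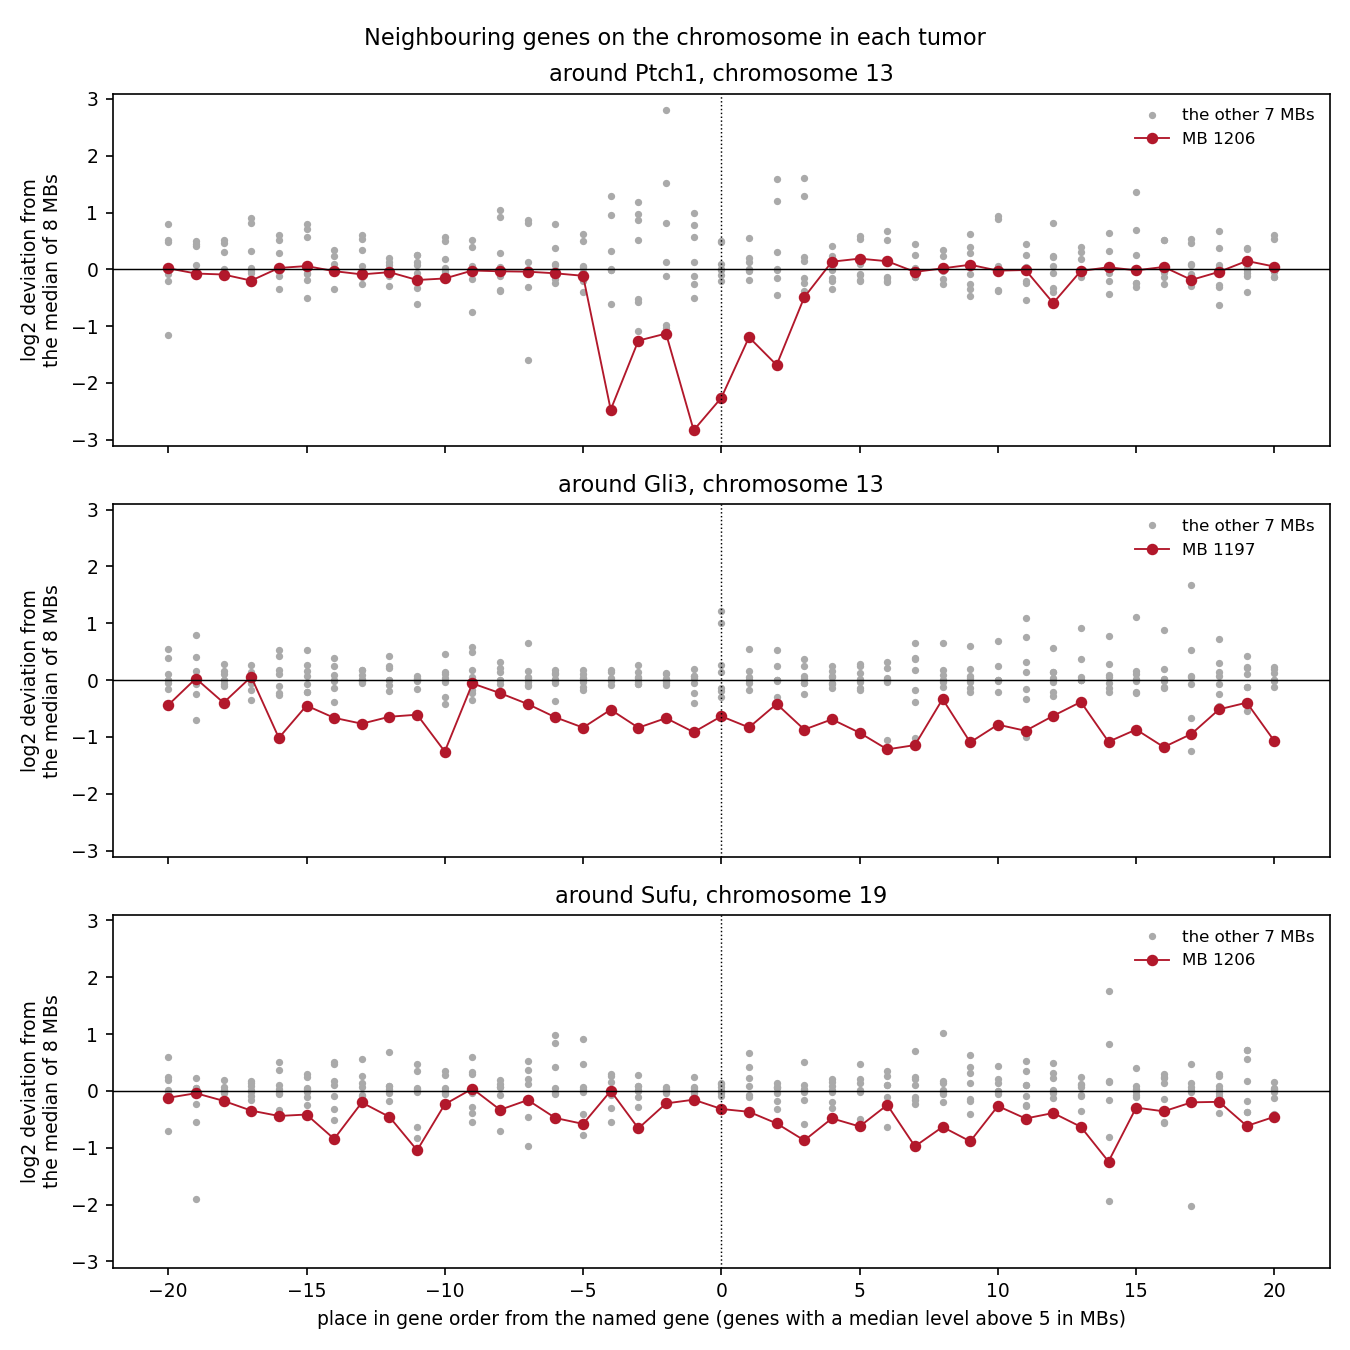
Deviation from the median of the 8 MBs (log2) for the 20 genes on each side of Ptch1, Gli3 and Sufu, in gene order along the chromosome, for genes with a median level above 5 in MBs. The red line is the tumor lowest for the named gene and grey points are the other 7 MBs. MB_1206 drops over a short stretch around Ptch1, MB_1197 lies below the median for 38 of the 40 neighbours of Gli3, and MB_1206 for 38 of the 40 neighbours of Sufu.

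The genes whose levels moved most like Gli1 over the 12 samples, by the root mean square difference of their centred log2 levels, were Shisa2 (0.35), Tbata (0.37) and Lhx2 (0.44). Lhx2 encodes a LIM homeobox transcription factor. Shisa2 averaged 9.54 in MB, 2.80 in CGNP and 3.71 in WC, against 9.10, 2.30 and 3.50 for Gli1. The genes most like Ptch1 were Zfp182 (0.34), Mterf2 (0.43) and Zfp367 (0.43), the last of which is the next gene above a level of 5 beside Ptch1. Such likeness over 12 samples, 8 of them tumors, is a description only.

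Other parts of the pathway were described through lists of 6 to 17 genes written from textbook knowledge. For each, counts are of genes past the limma test, read beside the shares of all genes given above. Among the ligands and the proteins that release them, the ligand genes were not above the floor in MBs: Shh averaged 2.22 in MB and 2.21 in CGNP, both at the floor, and 4.60 in WC, and Ihh and Dhh were at the floor in all groups. Shh was therefore lower in MB than in WC by at least 2.38 (adjusted p = 6.05e-09). Of the 9 genes, 1 was higher and 2 were lower in MB than in CGNP, and likewise 1 and 2 against WC. The higher one was Hhat, which attaches palmitate to the ligands, by at least 0.88 against CGNP and 0.90 against WC, both of which lay close to the floor. Disp2, a homolog of the ligand exporter Dispatched, was lower, with a difference of -0.54 against CGNP and -0.81 against WC, and Scube2, which helps to release the ligand, was lower than in CGNP by at least 0.83.

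Of 5 other surface proteins measured, 1 was higher and 1 lower in each comparison. With 1 sample left out, 2 were higher than in WC without MB_1207 or MB_706, 2 were lower than in WC without MB_1224 or WC_2647, and 2 were lower than in CGNP without CGNP_2698. Gpc3, a glypican that binds Hedgehog ligands and limits their signal, was higher by 4.11 against CGNP (standard error 0.54, limma adjusted p = 0.000207) and by at least 6.05 against WC (adjusted p = 9.68e-06). Gpc4, another glypican, was lower than in CGNP, with a difference of -2.02 (adjusted p = 0.00167). Cdon, a co-receptor beside Boc and Gas1, averaged 3.28 in MB and 3.26 in CGNP against 5.47 in WC, and was lower in MB than in WC, with a difference of -2.19 (adjusted p = 9.08e-05). Boc and Cdon, which are close relatives, thus differed from WC in opposite directions in MBs.

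Of 9 cilium genes that regulate the pathway, 7 were higher and 1 lower in MB in each comparison, with a median difference of 1.15 against CGNP and 1.35 against WC. Evc2, part of the complex that relays the SMO signal at the base of the cilium, was higher by 4.78 against CGNP (limma adjusted p = 1.64e-06) and 4.16 against WC (2.24e-06). Efcab7, which anchors that complex, was higher by 3.36 (6.5e-07) and 3.84 (1.17e-07). The lower one was Kif3a, a motor subunit needed to build cilia, with a difference of -0.72 in each comparison (adjusted p = 0.000203 and 0.000143). With the brightest probe set of each gene, no cilium gene was lower in either comparison with limma, so this call was lost. Without MB_1187 or MB_1206, 2 were lower than in CGNP. Ift88, an intraflagellar transport protein, passed against CGNP alone (1.15, against 0.31 for WC) and Gpr161, a ciliary receptor that restrains the pathway, against WC alone (1.35, against -0.26 for CGNP).

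Of 16 kinases, their subunits and ubiquitin ligases that act on SMO or GLI proteins, 2 were higher and 8 lower in MB than in CGNP, and 4 higher and 7 lower than in WC, with medians of -0.39 and -0.33. The 8 lower than in CGNP became 5 with the brightest probe set of each gene, 5 without CGNP_2698 and 4 without CGNP_2705, and none was higher without either CGNP sample. Against WC, 2 were higher without WC_2646 or WC_2647. Prkaca, the catalytic subunit of protein kinase A, which phosphorylates GLI proteins and so favours their repressor forms, was lower than in CGNP, with a difference of -1.36 (limma adjusted p = 0.00381), and the difference from WC was -0.53 (adjusted p = 0.176). Grk3, a receptor kinase, was lower, with a difference of -1.29 against CGNP (adjusted p = 0.0249) and -1.93 against WC (0.00221). Spop, the adaptor of the CUL3 ligase that targets GLI proteins, was lower than in WC, with a difference of -2.31 (adjusted p = 0.00194). Dyrk2, a kinase that acts on GLI proteins, was higher by 0.37 against CGNP (0.0279) and 2.54 against WC (6.49e-08), and Csnk1g2, a casein kinase 1 gene, by 0.59 (0.0157) and 0.60 (0.012).

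Of 11 target genes measured, 7 were higher in MB in each comparison and none was lower with limma, nor at an unadjusted p under 0.05, with medians of 2.41 against CGNP and 4.22 against WC. Without MB_1187, 1 was lower than in CGNP. Ccnd1, which encodes cyclin D1, averaged 11.52 in MB, 4.78 in CGNP and 7.30 in WC, a difference of 6.74 against CGNP (limma adjusted p = 1e-08) and 4.22 against WC (1.15e-07). Atoh1, the transcription factor of granule progenitors that is also among the markers above, averaged 11.95 in MB, 5.95 in CGNP and 2.76 in WC, a difference of 6.0 (3.25e-07) and 9.19 (6.78e-09). Sfrp1, a secreted WNT inhibitor, was higher by 3.71 (0.000147) and 7.91 (4.7e-07). Ccnd2, Mycn, Foxm1 and Pdlim3 passed in both comparisons as well. Gains of Mycn are reported by the study in every MB here but MB_1206. It also names Ccnd2 among the oncogenes often gained or amplified in its mouse tumors. How far such gains account for the levels of Mycn and Ccnd2 was not tested. Bcl2 (-0.09 against CGNP, -0.06 against WC), Igf2 (0.36 and 0.97), Gab1 (0.09 and 0.82) and Eya1 (-0.64 and -0.25) did not pass in either. For Igf2 the intervals were wide, from -1.95 to 2.66 against CGNP.

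**Figure D5:**
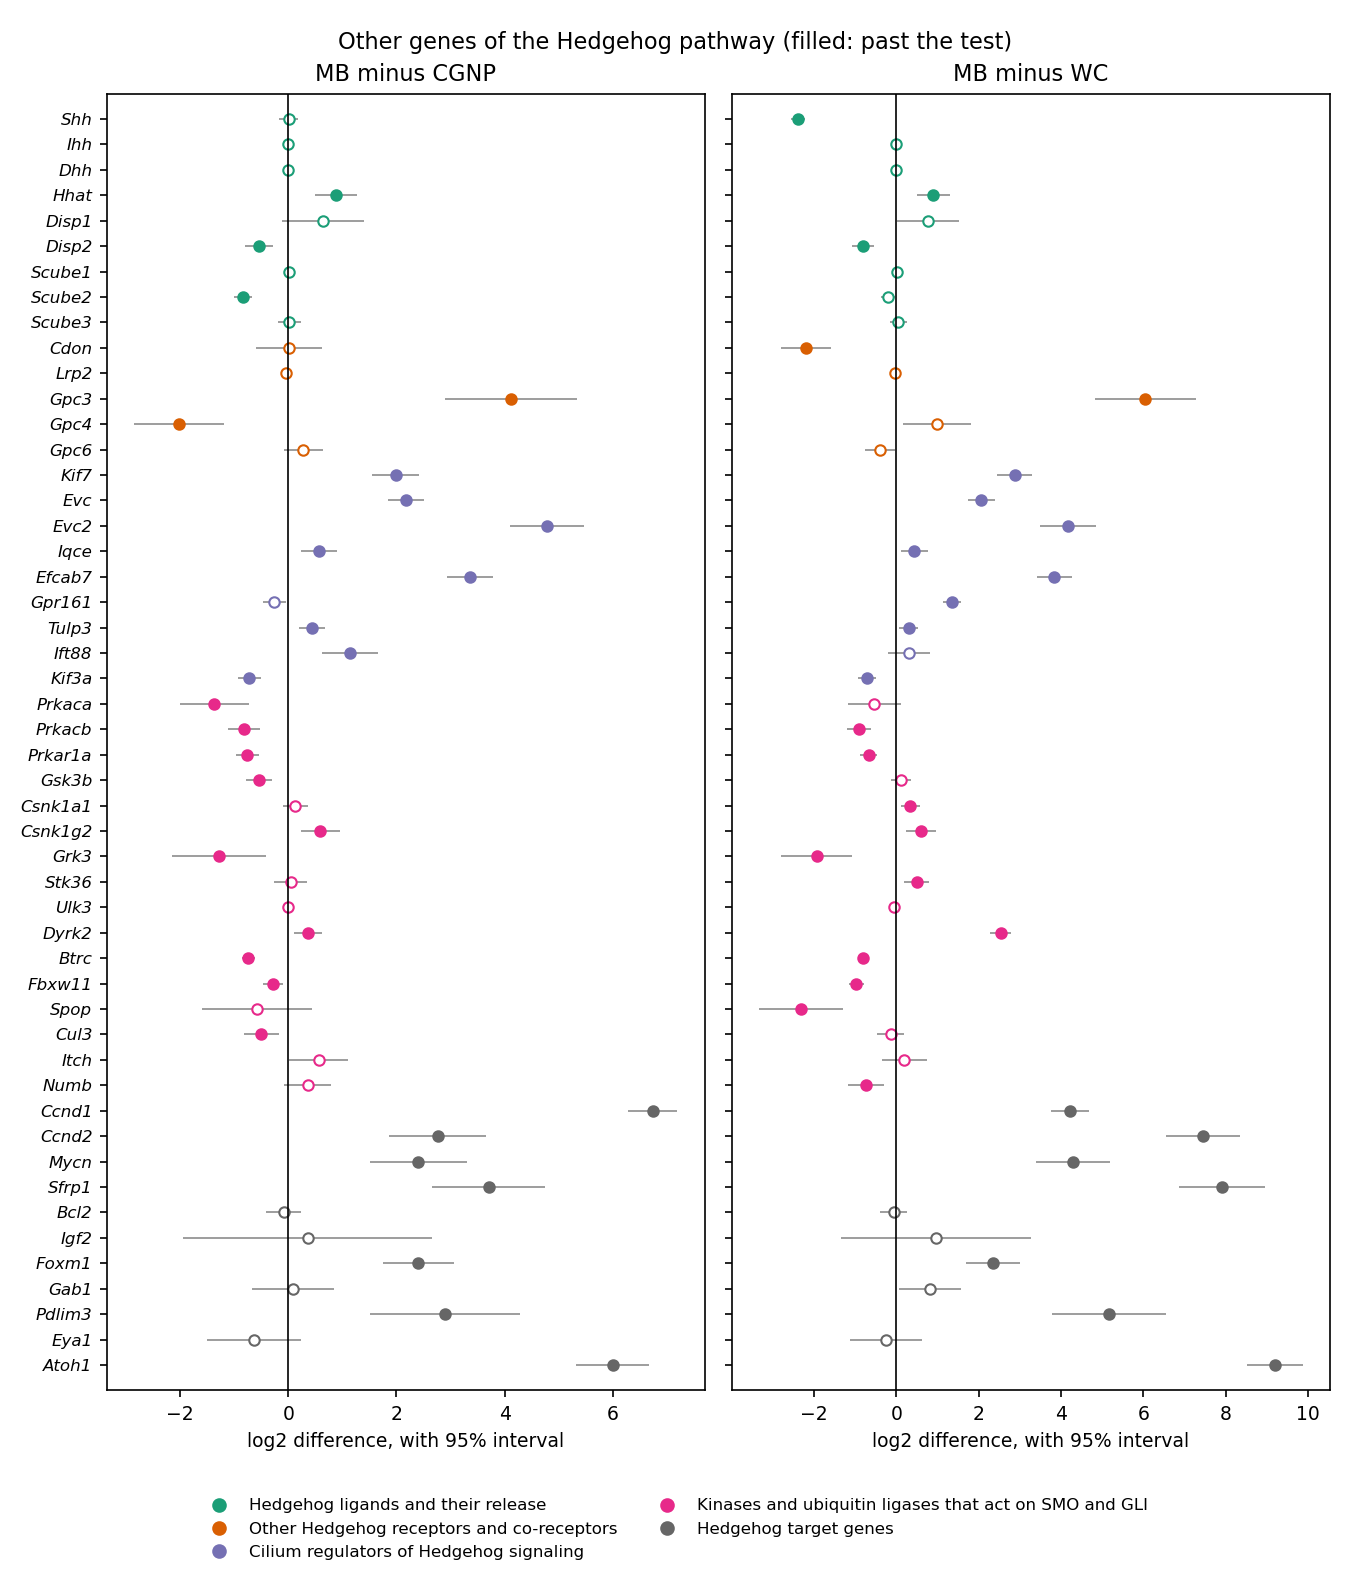
Differences in log2 level for the other measured genes of the pathway, MB minus CGNP on the left and MB minus WC on the right, with the 95% interval of the limma fit. Filled points are past an adjusted p of 0.05 and colours mark the 5 lists. Most cilium and target genes lie to the right of 0, and the ligands sit close to it except Shh against WC.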

How the data were processed

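For each array the authors deposited 1 log2 value per probe set, made from the raw array files with the R library affy and GCRMA. GCRMA adjusts for probe affinity and sets unexpressed probe sets to a common floor, so it compresses differences of dim probe sets. Versions and batches are not given in the sources used here, and precision is limited by how few arrays there are.

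Of 45101 probe sets, 34945 paired with 1 gene, 932 with several and 9160 with none, and 64 were array controls. In all 18193 genes were tested, dim ones included. A group was called close to the floor when all its samples lay within 0.5 of 2.20.

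MB, CGNP and WC were taken from the titles, which carry a different mouse number for each sample. In R 4.3.3, limma 3.58.1 (lmFit and eBayes) was fitted to the 3 groups of 12 samples, two-sided. Its p-values were adjusted by the Benjamini-Hochberg method over the whole table and called under 0.05, and the code was checked on simulated data. The study's methods pool the normal tissues in a t-test, which is among the alternatives. The others were other rules for probe sets, a filter on level, a shift of each array to one median, quantile normalization, array weights, a trend and robust fit, the 2 groups alone, a minimum fold change and leaving out each sample.

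All 9 members are described. From each pathway list the 2 genes with the widest rise and fall past the test in each comparison of MB are named, and other named genes were chosen after their values were seen. The members and lists were chosen with earlier results of these data known. Arl13b and Grk2 have no probe set paired with them alone and are not analysed here. Figures were drawn with matplotlib 3.10.9.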

Additional observations from a re-analysis of the deposited data

Results flagged for a closer look

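Ptch1 in MB_1206 stood far from the other tumors, with a log2 level of 5.33 where the next lowest MB had 7.38. Its gap to that tumor was 0.747 of the whole range of the 8 MBs, above Dixon's 95% critical value for 8 samples. On the brightest probe set of Ptch1 the gap was 0.778 of the range, again for MB_1206. The other 8 Hedgehog genes had no sample this far out among the MBs, the nearest being Sufu, also lowest in MB_1206, with a gap of 0.479 of the range. Chance alone flags about 1 in 20 groups. No cause was tested.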

How the results depend on the processing

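No paired analysis was possible because the groups share no replicate numbers. Between MB and each normal tissue no member changed direction under any alternative run, and Gli1 and Gli2 kept their call under all 25 in each comparison. With a minimum log2 fold change of 1, 1741 genes were called in MB against CGNP, 2777 in MB against WC and 1211 in CGNP against WC. Of the members, 3 were higher than in CGNP, with Smo, Boc and Gas1 lost, Sufu and Hhip were lost against WC, and 0 were higher and 0 lower in CGNP than in WC. With only genes above a level of 5, 0 members were higher in CGNP than in WC, since Sufu and Gli3 are not tested there. Shifting each array to one median moved the median of all genes by -0.10 (MB against CGNP) and -0.15 (MB against WC), and 11927 and 13149 genes were called, against 6792 and 8009. Members lower in CGNP than in WC numbered from 0 to 2 when 1 sample was left out. Boc differed between CGNP and WC by 0.002, and by -0.21 on its brightest probe set, -0.042 after the shift, and -0.0046 to 0.00855 with 1 sample left out. Without the 2 tumors farthest from the median of Gli1, its correlation was -0.28 with Gli3, -0.079 with Ptch1 and -0.0064 with Hhip. With CGNP and WC pooled, both Sufu (0.60, limma adjusted p = 0.00668) and Gas1 (0.82, adjusted p = 0.0425) passed. The causes were not tested. With 2 samples in each normal group, a call that rests on them is the least secure.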
